A study of Mus musculus with 14 samples.

Results

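The promoters described here are those of 7 mouse genes, Camk2d, Adra2a, Nell1, Rce1, Ppp4r3b, Parm1 and Zfp3. At each, the caller MAPS listed 18 to 50 loops in neural precursor cells (NPCs) without auxin. With auxin, given to deplete the CTCF protein, it listed at most 1. The genes are 7 of the 14546 protein-coding genes with an end in a bin marked by H3K4me3, and their bins are 7 of 11957. They were chosen by measured values, the MAPS loop counts of both NPC groups, with a change of the same sign also required in FitHiChIP, the other caller. The NPC auxin comparison of these genes is therefore a description, and nothing rests on it.

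The assay was H3K4me3 PLAC-seq, in which chromatin is cut and ligated, fragments carrying the promoter mark H3K4me3 are immunoprecipitated, and ligated pairs are sequenced. The cells were F123 mouse embryonic stem (ES) cells whose CTCF carries an auxin-inducible degron (CTCF-AID), so every group, controls included, carries the tagged CTCF and comes from 1 cell line. Of the 4 groups used, ESC control had 0 h of auxin and ESC auxin had 48 h. NPC control were neural precursor cells on day 4 of differentiation without auxin, and the NPC auxin group had auxin in the medium up to that day. Each group has 2 samples by the titles. The other 6 of the 14 samples, in which a dCas9 protein was used, were not analysed here. Auxin was present during differentiation, so loss of CTCF in NPCs and any change in differentiation cannot be told apart. The files hold loops and no expression values, so neither the cell type nor the loss of CTCF could be checked in them.

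CTCF is a zinc finger protein that binds DNA in an oriented way and halts cohesin, the ring complex that extrudes chromatin loops. Pairs of CTCF sites are known to anchor loops and domain boundaries, and CTCF bound near a promoter can bring distant regulatory elements to it. A promoter that is scanned past a long stretch of chromatin shows in such data as a stripe, a row of neighbouring bins that all contact 1 anchor.

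A loop is a pair of 10 kb bins that a caller lists. There is 1 list per group and caller, so the spread between replicates is unknown and no p-value can be given. Intervals are exact 95% intervals, Poisson for counts and Clopper-Pearson for shares. They cover counting error only, and many loops of a promoter are adjacent pairs that are not independent. MAPS listed 56714 and 27610 loops in ESCs (control, then auxin) and 82861 and 41667 in NPCs, over 20 to 1000 kb. FitHiChIP listed 33475 and 22705, then 44892 and 24836, over 20 to 2000 kb. Where 4 values follow each other below, they are in this order of groups. Total contacts behind the FitHiChIP lists ranged from 47519917 to 59961568 and were highest in NPC auxin.

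Because CTCF was the protein that auxin targeted, the promoter windows of the 7 genes were searched, 300 bases each around the start site (RefSeq, GRCm38.p6). Both strands were searched for letters of the CTCF core motif, CC, 3 bases of any kind, AG, 2 of any kind and GGC. All 7 genes matched an entry, and Rce1 had 2. The motif was found at 1 of the 7 genes, Adra2a, and in 2828 of the 32851 promoter windows of the reference (8.61%). The Adra2a match lies on the plus strand, 32 bases past the start site, and reads as follows.

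Adra2a core motif match: CCAGCAGCCGGC

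A shorter pattern, CCAGCAG, 1 base of any kind and GG, was chosen after the sequences had been seen, and a stretch of DNA can match both patterns. It occurred in 336 windows (1.02%) and at 2 of the 7 genes, Adra2a and Parm1. The 250 bases before both start sites are shown because they hold those matches, in capitals, at positions -250 and -164 from the start. A match is a description of letters, and the other 5 genes can hold CTCF sites elsewhere in their bins. The windows of the 7 genes had 63 to 72.7% G or C bases. The median was 52.7% over all windows and 60.3% over those of genes with a marked end. The shares over all windows are therefore not a background of like base content.

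Adra2a, chr19:54045009-54045258, plus strand: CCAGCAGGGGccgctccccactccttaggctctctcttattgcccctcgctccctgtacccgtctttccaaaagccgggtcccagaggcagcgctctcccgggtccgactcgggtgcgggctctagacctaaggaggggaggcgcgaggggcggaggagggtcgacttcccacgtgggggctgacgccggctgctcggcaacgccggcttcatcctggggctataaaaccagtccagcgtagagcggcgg

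Parm1, chr5:91517450-91517699, plus strand: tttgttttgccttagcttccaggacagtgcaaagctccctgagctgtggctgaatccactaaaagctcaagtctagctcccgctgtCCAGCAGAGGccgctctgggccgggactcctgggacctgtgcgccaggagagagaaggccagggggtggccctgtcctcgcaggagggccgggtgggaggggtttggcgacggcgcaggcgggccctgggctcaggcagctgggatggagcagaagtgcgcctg

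The 7 promoter bins held 178 MAPS loops in NPCs without auxin and 1 with it, the pair of Adra2a with a bin 740 kb away. The Adra2a bin held 50 and 1, and Camk2d 31 and 0. Nell1 held 21 and 0, Rce1 20 and 0, Ppp4r3b and Parm1 19 and 0 each, and Zfp3 18 and 0. All 7 of the 7 bins thus had at most 0.25 times as many loops as in control, a state that 18.5% of the 3267 promoter bins with at least 10 MAPS loops over both NPC lists shared. Nothing is read from the 7 of 7, since this contrast chose the genes.

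**Figure D1:**
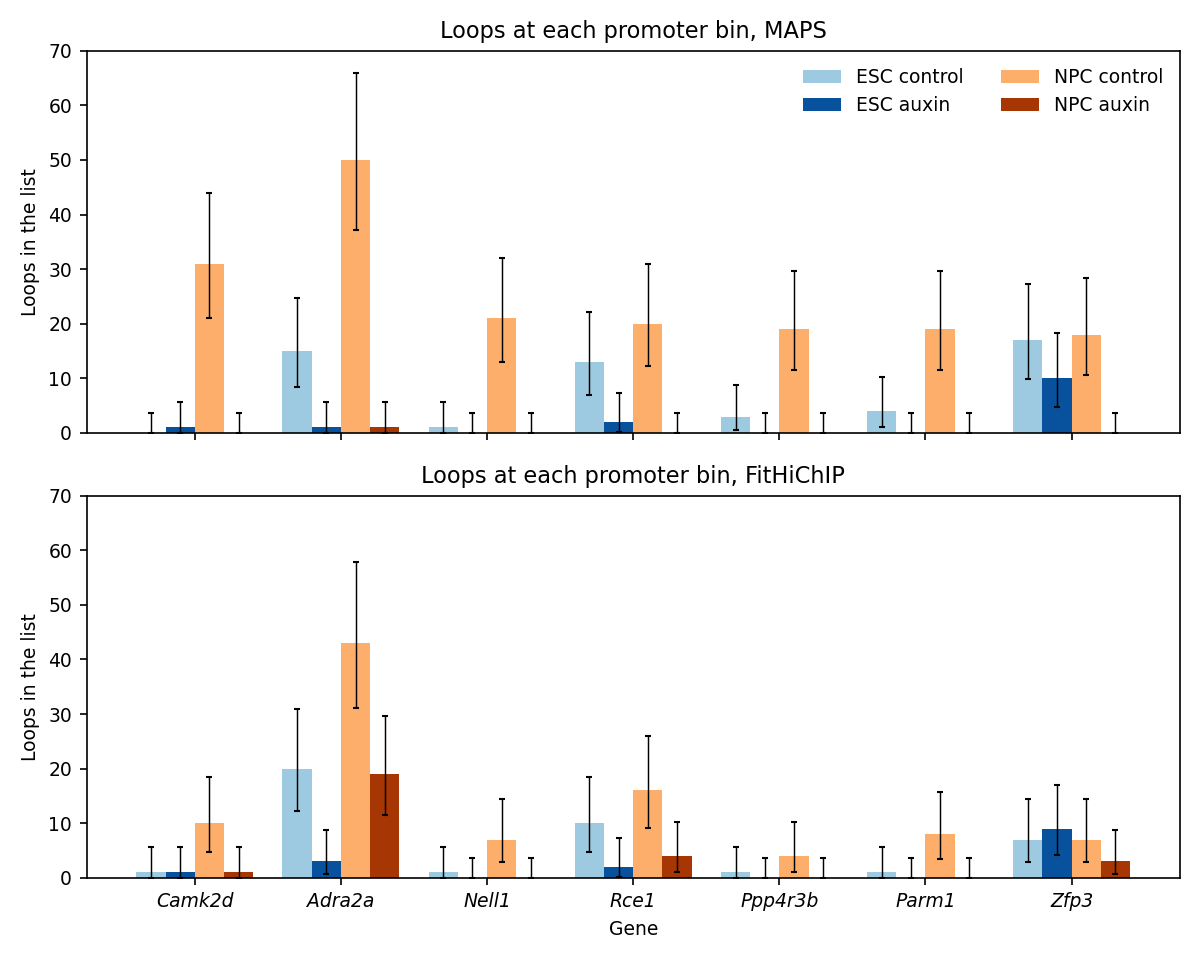
Loops at each promoter bin in the 4 MAPS lists (top) and the 4 FitHiChIP lists (bottom). Bars are counts of listed loops and error bars exact 95% Poisson intervals. MAPS loops in NPC control run from 18 at Zfp3 to 50 at Adra2a against 0 or 1 in NPC auxin, while FitHiChIP lists 19 loops at Adra2a in NPC auxin.

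Ranked by log2 of the NPC auxin loops plus 1 over the NPC control loops plus 1, relative to the list totals, the 7 bins took 7 of the 10 lowest places among the 1785 bins whose change had the same sign in both callers. Camk2d was lowest at -4.01 and Adra2a next at -3.68. The other places among the 10 lowest went to bins outside the 7. Abtb2 and the bin of Gcc1 and Arf5 had 22 and 0 loops each, at -3.53. A bin with Pcdhb16 had 21 and 0, at -3.47, the same as Nell1. The last inside was Zfp3 at -3.26 with 18 and 0 loops. Just outside was Stk32b, also with 18 and 0 at -3.26. The edge of the choice therefore passes between bins with equal counts.

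**Figure D2:**
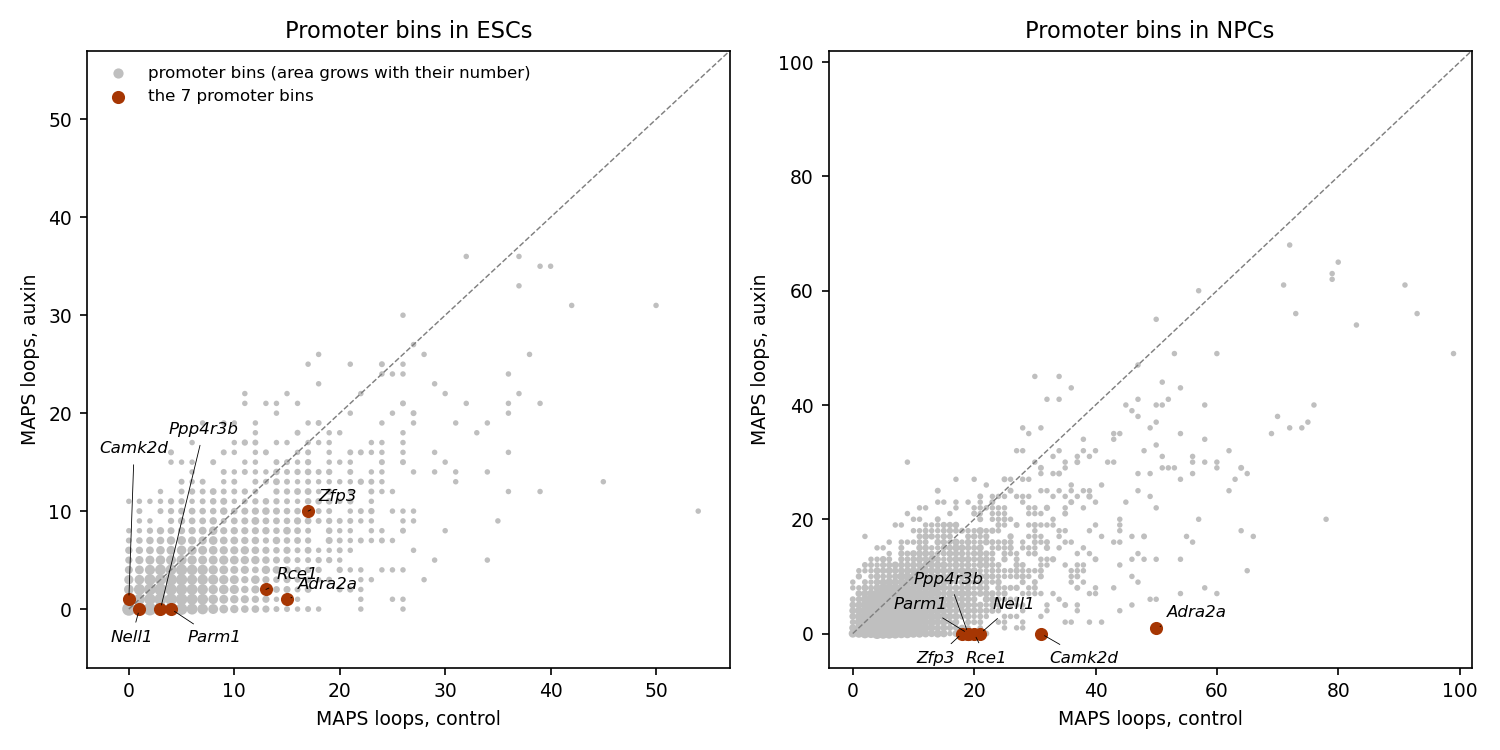
MAPS loops in control (horizontal axis) and auxin (vertical axis) for the 4862 promoter bins with at least 10 MAPS loops over the 4 lists, in ESCs (left) and NPCs (right). Grey areas grow with the number of bins at a point and the dashed line marks equal counts. The 7 bins lie on the floor of the NPC panel at 0 or 1, while in ESCs Zfp3 lies at 17 and 10.

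The second caller listed more loops in NPC auxin. FitHiChIP counted 95 loops at the 7 bins without auxin and 27 with it. Adra2a held 43 and 19, Rce1 16 and 4, Camk2d 10 and 1, and Zfp3 7 and 3. Parm1 held 8 and 0, Nell1 7 and 0, and Ppp4r3b 4 and 0. Of the 6 bins with at least 5 FitHiChIP loops over both lists, 4 (Camk2d, Nell1, Rce1 and Parm1) had at most 0.25 times as many loops with auxin, beside 17.3% of 4531 promoter bins. Adra2a and Zfp3 did not pass that rule, and Ppp4r3b had too few loops to be counted.

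Of the 178 NPC control MAPS loops 0.562% (0.0142 to 3.09) were called again in NPC auxin, beside 27% of the whole list. For FitHiChIP the share was 24 of 95, or 25.3% (16.9 to 35.2), beside 35.8%. The choice of the bins fixed the MAPS share in advance and enters the FitHiChIP share, so both are descriptions. In NPC control 68 pairs were in the lists of both callers, 38.2% of the MAPS loops and 71.6% of the FitHiChIP loops at these bins. In NPC auxin the single MAPS loop was also a FitHiChIP loop, 100% of the MAPS loops and 3.7% of the 27, an overlap that the choice of bins limits.

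Adra2a, the alpha-2A adrenergic receptor that couples noradrenaline to inhibitory G proteins, had the most loops of the 7. Its bin on chromosome 19 (54040001 to 54050000) covers the whole gene, which has a single marked bin for both ends. In MAPS it held 15 and 1 loops in ESCs and 50 and 1 in NPCs. Control loops were thus more numerous in NPCs, and both auxin lists held a single one.

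Of the 50 NPC control loops, 48 ran to higher coordinates, downstream of the gene, from 140 to 1000 kb, and 48 of the 50 partner bins overlapped no protein-coding gene. The contacts at these pairs fell from 70 at 210 kb to 12 to 20 at most distances past 500 kb. The pair at 740 kb stood above its neighbours with 40 contacts, 11.4 times the background expected by MAPS, the highest ratio of any Adra2a loop in MAPS. It was also the one that MAPS listed in NPC auxin, with 20 contacts and a ratio of 3.70.

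FitHiChIP, which reaches beyond 1 Mb, showed where the Adra2a loops of NPC auxin lay. Of its 43 NPC control loops 23 were within 1000 kb and 20 beyond, and of the 19 NPC auxin loops 4 were within and 15 beyond. Within 1000 kb 2 of 23 control loops were called again, 8.7% (1.07 to 28), beside 32.2% of the whole list. Beyond it 15 of 20 were, 75% (50.9 to 91.3), beside 55.2% of the list. In ESCs the same split gave 0 of 7 within 1000 kb, beside 36.7% of the list, and 3 of 13 beyond, 23.1% (5.04 to 53.8), beside 74.5%. The loops beyond 1000 kb lie outside the range of the MAPS lists, and this split was made after the data had been seen. The choice of Adra2a used MAPS counts from within 1000 kb in NPCs, so the NPC share within that range is a description.

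All 15 NPC auxin partners beyond 1000 kb lay in 1 block, 1010 to 1210 kb downstream. It runs over Gpam, a mitochondrial glycerol-3-phosphate acyltransferase, to Acsl5, a long-chain acyl-CoA synthetase. The pair at 1020 kb, in the bin of a Gpam end, had 48 contacts in ESC control and was not listed in ESC auxin. In NPCs it had 77 contacts without auxin and 22 with it. At 1160 kb the contacts were 22, 12, 60 and 37. Both pairs were highest in NPC control, and the second was in all 4 FitHiChIP lists.

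**Figure D3:**
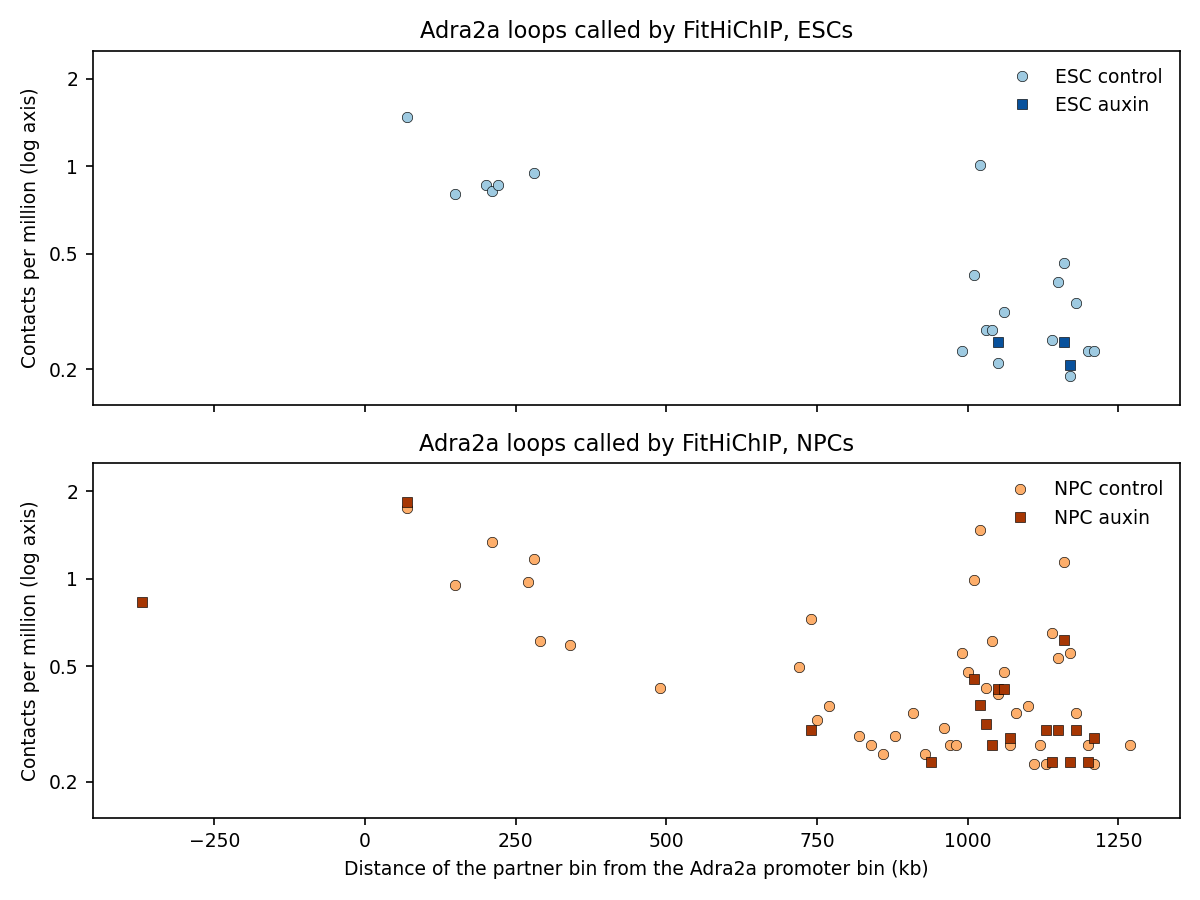
Contacts per 1000000 total contacts (log axis) of each Adra2a loop listed by FitHiChIP, against the distance of the partner bin from the promoter bin in kb, in ESCs (top) and NPCs (bottom). Circles are control and squares auxin. In NPC auxin 15 of the 19 loops lie beyond 1000 kb, and the pair at 70 kb is as high as in control.

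Over the 17 Adra2a pairs that FitHiChIP listed in both NPC groups, contacts relative to the list total were lower with auxin at 12 and higher at 5. The median log2 change was -0.41, beside -0.20 over the 16052 shared pairs of the list. The pair at 70 kb, with a partner bin marked by H3K4me3, had 92 contacts in control and 110 with auxin. A pair at -370 kb, within Rbm20, which encodes a splicing regulator, was in none of the control lists and had 50 contacts in the FitHiChIP NPC auxin list and 24 in the MAPS ESC auxin list. This pair was thus listed in auxin groups alone, each time by 1 of the callers. Other upstream pairs within Rbm20 were in the MAPS NPC control list, at -310 kb with 20 contacts and at -290 kb with 27.

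Camk2d encodes the delta chain of calcium/calmodulin-dependent protein kinase II, which phosphorylates ion channels and other targets when calcium rises. Its bin (chromosome 3, 126590001 to 126600000) held 0 and 1 MAPS loops in ESCs and 31 and 0 in NPCs. In FitHiChIP the counts were 1, 1, 10 and 1. None of the NPC control loops was listed in ESC control by the same caller. In MAPS this share, 0 of 31, could only be 0, since its ESC control list held 0 loops of Camk2d.

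All 31 NPC control loops ran downstream, from 90 to 570 kb, and 30 of them filled an almost unbroken run of bins up to 410 kb. The run crosses the gene itself, which is 250840 bp long: 17 partner bins overlapped Camk2d, 5 no gene, and 9 the next gene Ank2, which encodes the membrane adaptor ankyrin-B. Contacts were highest at 180 kb, with 85 contacts and a ratio of 5.08, and the ratio was highest at 310 kb, 6.80 times the background with 28 contacts. FitHiChIP listed 10 of the same pairs.

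The only Camk2d loop in NPC auxin was the FitHiChIP pair at 570 kb, the farthest one, with a marked partner bin in Ank2. It had 26 contacts without auxin and 23 with it, or 0.497 and 0.384 per 1000000 contacts of the list. In ESCs the single loop ran the other way, to a marked bin at -660 kb with an end of Ugt8a, the galactosyltransferase that makes myelin glycolipids. That pair had 12 contacts in ESC control and 14 in ESC auxin in FitHiChIP, and 15 in ESC auxin in MAPS. No NPC list held it.

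Nell1 encodes a secreted glycoprotein with EGF-like repeats, known for its part in bone formation. Its bin (chromosome 7, 49970001 to 49980000) held 1, 0, 21 and 0 MAPS loops and 1, 0, 7 and 0 FitHiChIP loops. The gene is 887940 bp long, and all 21 NPC control partners lay inside it, 120 to 750 kb from the promoter. None of these partner bins was marked by H3K4me3. The highest ratio was 6.50, at 740 kb with 18 contacts.

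FitHiChIP listed 6 of these 21 pairs, plus a pair at 1480 kb beyond the gene. The ESC control loops were different pairs, at 690 kb in MAPS with 13 contacts, and at 1650 kb in FitHiChIP with 15 contacts to the bin of Slc17a6, a vesicular glutamate transporter. Like Camk2d, Nell1 shared 0 of its NPC control loops with ESC control (0 of 21 in MAPS). With 1 MAPS loop in ESC control, little could be shared.

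Parm1 encodes a mucin-like membrane protein. Its bin (chromosome 5, 91510001 to 91520000) held 4, 0, 19 and 0 MAPS loops and 1, 0, 8 and 0 FitHiChIP loops. All 19 NPC control loops ran downstream, from 200 to 620 kb, past the end of the gene. The largest ratio was 7.54, at 350 kb with 30 contacts.

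The marked partners of Parm1 lay at the far end of this range. The bin at 450 kb holds an end of Rchy1, a ubiquitin ligase gene, and had 32 contacts in NPC control. The one at 530 kb holds an end of the kinase gene Cdkl2, also with 32 contacts and a ratio of 5.99. At 620 kb, G3bp2, an RNA-binding protein of stress granules, and Uso1, a vesicle tethering factor, share a bin with 19 contacts. All 4 ESC control loops of Parm1, at 360 to 440 kb, were also NPC control loops, and none was listed in ESC auxin.

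Ppp4r3b encodes a regulatory subunit of protein phosphatase 4. Its bin (chromosome 11, 29170001 to 29180000) held 3, 0, 19 and 0 MAPS loops and 1, 0, 4 and 0 FitHiChIP loops. Its loops ran both ways: 13 of the NPC control partners lay upstream, between -360 and -570 kb, where no partner bin overlapped a protein-coding gene. The other 6 lay downstream at 280 to 540 kb, over Ccdc88a, Mtif2 and Rtn4.

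The pair at -560 kb had the highest ratio, 7.74 with 25 contacts. The one marked partner in NPC control, at 520 kb with an end of Rtn4, which encodes the neurite growth inhibitor Nogo, had 26 contacts and a ratio of 2.24. FitHiChIP listed the Rtn4 pair too, with 23 contacts.

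**Figure D4:**
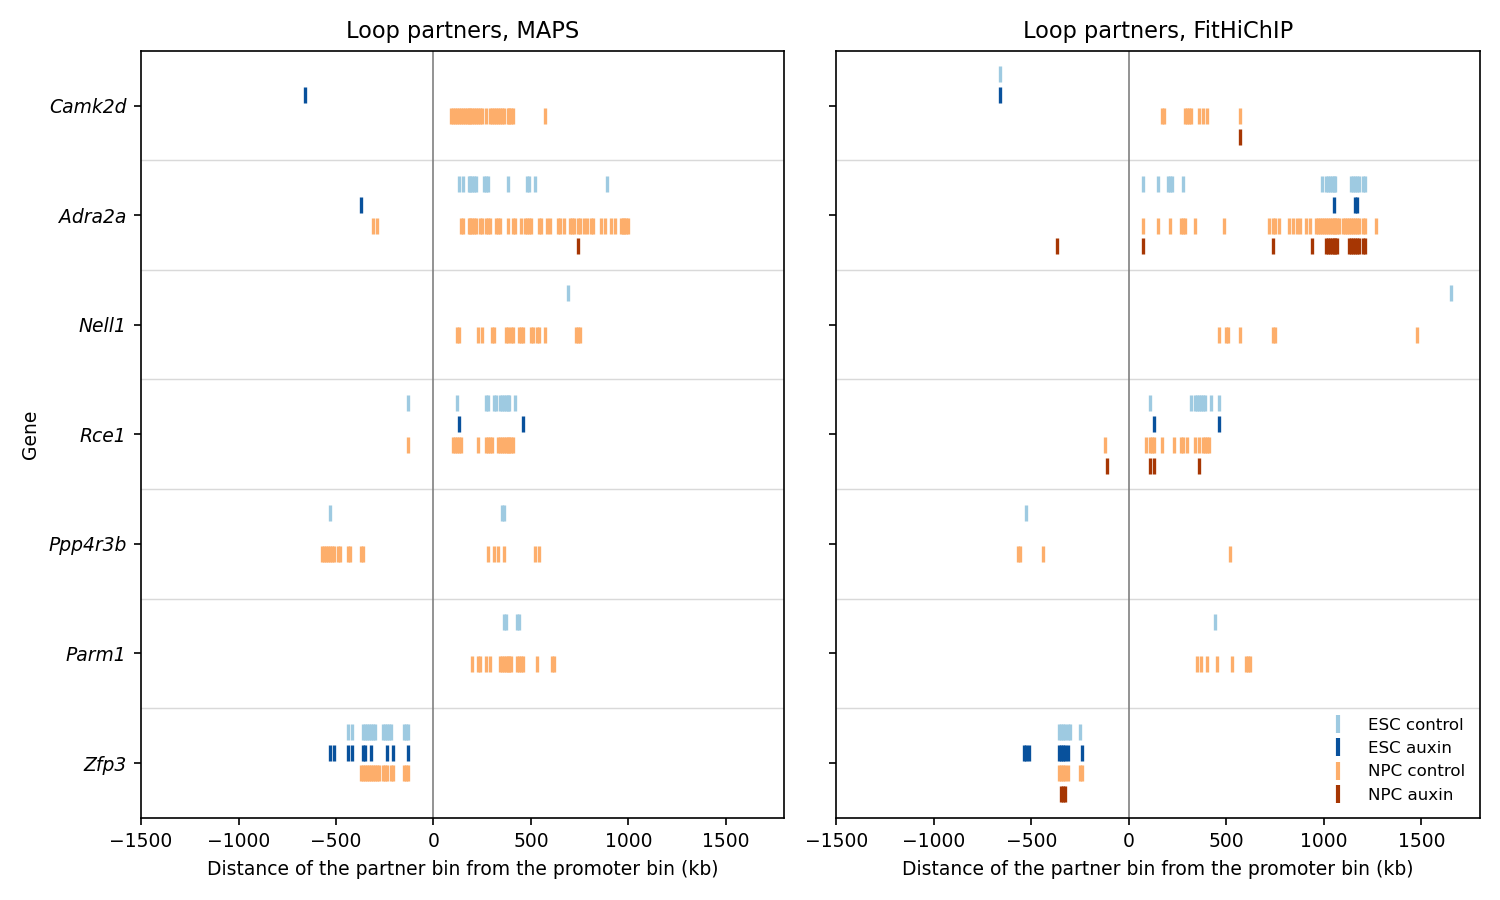
Partner bins of the 7 promoters by signed distance in kb (negative toward lower coordinates), for MAPS (left) and FitHiChIP (right). Each tick is 1 loop, coloured by group, with 1 row of ticks per group under each gene. Camk2d, Nell1 and Parm1 have NPC control partners on the higher side and Zfp3 on the lower side, and the NPC auxin ticks of Adra2a gather beyond 1000 kb in FitHiChIP.

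Rce1 encodes the protease that trims the end of prenylated CAAX proteins such as Ras. Its bin (chromosome 19, 4620001 to 4630000) also holds ends of Pcx, the gene of pyruvate carboxylase, and of Gm960, so the loops cannot be given to 1 of the 3 genes. MAPS listed 13, 2, 20 and 0 loops, and FitHiChIP 10, 2, 16 and 4. The region is gene-dense, and 12 of the 20 NPC control partners were marked by H3K4me3.

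Ends of Npas4, an activity-regulated transcription factor of neurons, lie in the partner bins at 360 and 380 kb. The pair at 360 kb had 30 contacts in FitHiChIP in NPC control and 30 with auxin. The pair at 380 kb had 50 in NPC control, with the highest FitHiChIP ratio of this bin there, 5.53. Neither caller listed it in NPC auxin. Relative to the list totals, the 3 Rce1 pairs listed in both NPC groups were all lower with auxin, by log2 values of -0.73 to -0.20. The 2 ESC auxin loops were listed by both callers.

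Zfp3 encodes a zinc finger protein. Its bin (chromosome 11, 70760001 to 70770000) held 17, 10, 18 and 0 MAPS loops and 7, 9, 7 and 3 FitHiChIP loops. In ESC auxin it held 10 MAPS loops, more than at the other 6 bins, which held 0 to 2. All Zfp3 loops ran to lower coordinates, upstream of the gene, in MAPS from -130 to -370 kb in NPC control and as far as -530 kb in ESC auxin.

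Of the marked partner bins with a gene end, those found in the most lists hold the ends of Pelp1, a coregulator of nuclear receptors, at -350 kb and of Arrb2, a beta-arrestin, at -330 kb. The Pelp1 pair was in 7 of the 8 lists, with 27 contacts in the FitHiChIP NPC auxin list against 46 in NPC control. The Arrb2 pair had 61 in NPC control and 67 with auxin. Relative to the list totals, all 3 Zfp3 pairs listed by FitHiChIP in both NPC groups were lower with auxin, by log2 values of -0.96 to -0.06. At -240 kb the bin of Gltpd2 and the proteasome gene Psmb6 had 66 contacts in NPC control and was not listed in NPC auxin.

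The callers did not count the same contacts at Zfp3. The pair at -340 kb had 21 contacts in MAPS and 121 in FitHiChIP without auxin, and FitHiChIP gave it 128 with auxin, where MAPS did not list it. Over the 7 pairs in both NPC control lists the median log2 ratio of FitHiChIP to MAPS contacts was 0.48, with a maximum of 2.53. Over all 27396 such pairs of the list the median was 0.00 and the central 95% of pairs ran from -0.22 to 0.42.

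The same bins in ESCs give a comparison that the choice did not use. The 7 bins held 53 MAPS loops without auxin and 14 after 48 h of it, of which 10 were at Zfp3. Bins with at least 10 loops over both ESC lists were Adra2a, Rce1 and Zfp3, and 2 of the 3, Adra2a and Rce1, had at most 0.25 times as many loops with auxin, beside 17.9% of 1939 promoter bins. In FitHiChIP the same 2 of 3 did, beside 17.9% of 2750. With 3 bins to count, no share can be set against that background.

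Of the 53 ESC control loops 7 were called again in ESC auxin, 13.2% (5.48 to 25.3), beside 22.9% of the whole list. All 7 belonged to Zfp3, where they were 7 of 17, and none of the loops of the other bins was called again. In FitHiChIP 10 of 41 were, 24.4% (12.4 to 40.3), beside 43.3%, of which 5 were at Zfp3 and 3 at Adra2a beyond 1000 kb.

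Between the control groups, 5 of the 7 bins held at least 2 times as many loops in NPCs as in ESCs in both callers: Camk2d, Adra2a, Nell1, Ppp4r3b and Parm1. That state was shared by 39.6% of 3467 promoter bins in MAPS and by 40.4% of 4460 in FitHiChIP. The NPC control count that chose the bins enters this comparison, so it is a description. Rce1 (13 and 20 MAPS loops) and Zfp3 (17 and 18) did not meet the rule.

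Pair by pair, 41 of the 178 NPC control loops were also in ESC control, 23% (17.1 to 29.9), beside 34.5% of the whole list. At Zfp3 14 of 18 were, at Rce1 10 of 20, at Adra2a 11 of 50, at Parm1 4 of 19 and at Ppp4r3b 2 of 19. The other way round, 41 of the 53 ESC control loops were also in NPC control, 77.4% (63.8 to 87.7), beside 50.3%. The bins were chosen for their NPC control loops, which enter both shares, so these are descriptions too.

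The reads that cover a bin, as deposited with FitHiChIP, were given where the list holds a loop of that bin. Per 1000000 contacts, Camk2d had 69.9 and 78.4 in ESCs and 187 and 153 in NPCs. Adra2a had 112, 122, 212 and 203, Rce1 93.7, 85.7, 183 and 157, and Zfp3 93.3, 88.8, 127 and 117. Nell1, Ppp4r3b and Parm1 had no loop in either auxin list and so no reads there.

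From NPC control to NPC auxin the log2 change in reads was -0.29 at Camk2d (-0.33 to -0.25), -0.22 at Rce1, -0.12 at Zfp3 and -0.07 at Adra2a. The median of 7150 promoter bins was -0.15, and the central 95% of them ran from -0.34 to 0.04. All 4 bins lay within that range. From ESC control to NPC control the log2 change was 1.42 at Camk2d, above the central range of -0.29 to 1.27 over 6756 bins. It was 0.97 at Rce1, 0.92 at Adra2a, 0.86 at Ppp4r3b, 0.54 at Nell1, 0.44 at Zfp3 and 0.40 at Parm1, against a median of 0.45. More reads can raise the number of loops called, and their part in the NPC loops was not tested.

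Loops around the promoters were counted within 1000 kb on each side, leaving out those anchored in the promoter bin. In MAPS, Camk2d had 10 without auxin and 0 with it, Parm1 27 and 5, and Rce1 84 and 21. Nell1 had 41 and 19, near the 50.3% left over the whole list. At Adra2a 81 and 49 were listed (60.5%), at Zfp3 131 and 92 (70.2%) and at Ppp4r3b 46 and 35 (76.1%). Around these last 3 promoters the number of other loops thus stayed above the share of the whole list. The loss at the promoter bins themselves chose the genes, so nothing is read from its contrast with these other loops.

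**Figure D5:**
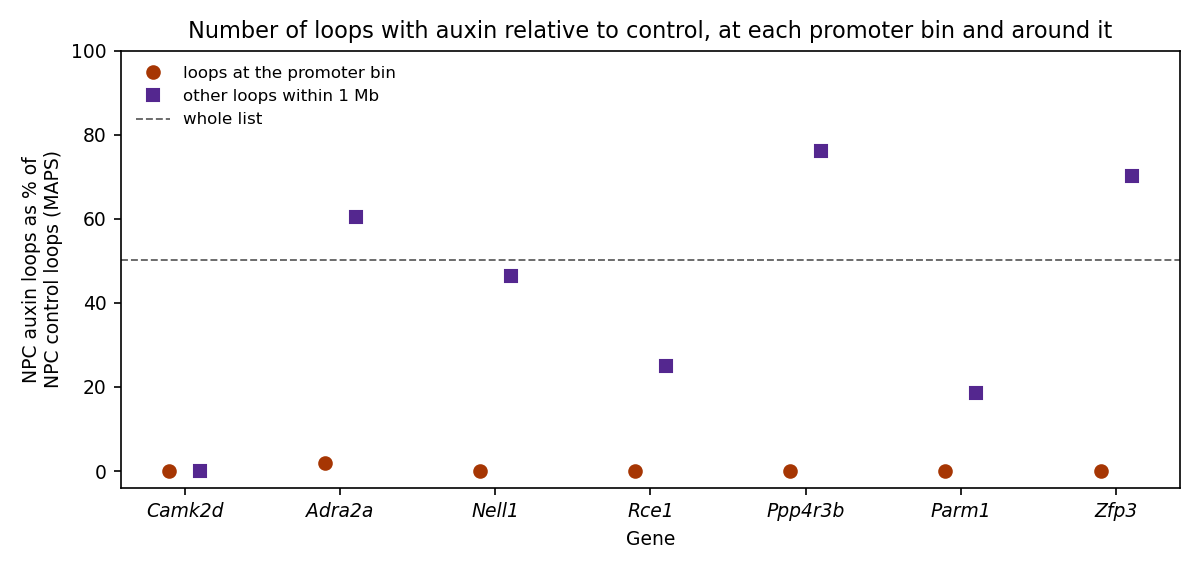
NPC auxin loops as a percentage of NPC control loops in MAPS, for loops at the promoter bin (circles) and for other loops with both anchors within 1000 kb (squares). The dashed line is the whole list at 50.3%. Squares run from 0% at Camk2d to 76.1% at Ppp4r3b. Every circle is at 2% or less, which the choice of the bins fixed in advance.

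In NPCs without auxin, the loops of the 7 bins had contact strengths near those of the list. Their median ratio to background in NPC control was 3.22, beside 3.03 in the whole MAPS list, and their median contact count was 23 beside 26. They were longer, with a median of 360 kb against 260 kb. Adra2a and Ppp4r3b had the longest, with medians of 520 and 490 kb, and Camk2d the shortest, 240 kb. H3K4me3 marks at both anchors were found at 16.3% of them against 19.1%. Rce1 (60%), Zfp3 (50%) and Parm1 (21.1%) lay above the share of the list and the other bins below it. In ESC control the share at the 7 bins was 43.4%, against 26.4% of that list. The NPC control loops entered the choice of the bins, so their values are descriptions.

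Relatives of 5 of the 7 genes were counted in the same way. Of 35 CaM kinase, adrenergic receptor, NELL and thrombospondin, CAAX processing and protein phosphatase 4 genes, 30 had a promoter bin. In NPCs 17 of them had fewer MAPS loops with auxin, 3 more and 10 the same number, beside 6917, 1984 and 3056 of all 11957 promoter bins, and their median went from 5.5 to 2, beside 3 to 1 over all promoter bins. Of the 14 with at least 10 loops, 2 had at most 0.25 times as many loops with auxin, beside 18.5% of promoter bins. They were Camk4 with 11 and 2 and Adra1d with 12 and 2.

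Within families the counts differed. Nell2, the closest relative of Nell1, held 6 and 0, and Thbs1, a thrombospondin, 30 and 14. The catalytic subunit gene Ppp4c held 23 and 6, while Ppp4r3a, the paralog of Ppp4r3b, held 30 in both and, in FitHiChIP, 31 and 17. Camkk2, a kinase that activates CaM kinases, held 5 and 9, and Pggt1b, a subunit of a prenyl transferase, 8 and 10.

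The bins with the most similar counts over the 8 lists, by the Euclidean distance of log2 of the loops plus 1, were often shared. Sik2, a salt-inducible kinase gene, was among the 2 nearest of Nell1 (distance 1.05), Ppp4r3b (0.59) and Parm1 (1.20), with 2, 0, 14 and 0 MAPS loops. Parm1 was closest to Ppp4r3b itself (0.91). The bin of Gcc1 and Arf5 was nearest to Nell1 (0.83). For Camk2d these were the bins of Polk and Cert1 (1.48) and of Slit2 (1.74), an axon guidance ligand with 1, 1, 11 and 0. Adamts1, a secreted protease gene, was nearest to Adra2a (2.09), with 6, 2, 28 and 4. For Rce1 Pola2, a DNA polymerase alpha subunit gene, was among the nearest (1.44), with 16, 2, 8 and 0, and for Zfp3 it was Sema5b (1.73), with 13, 5, 7 and 0.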

How the data were processed

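H3K4me3 PLAC-seq had been done on F123 CTCF-AID cells, and 8 deposited lists of loops were used, 1 per caller (MAPS and FitHiChIP) for each of 4 groups of 2 samples. Whether the 2 samples were combined ahead of loop calling is not stated in the labels. BWA, Picard and mm10 are named, without versions, per the submitters' processing notes. Per the file headers, the deposited MAPS lists hold a read count per pair of 10 kb bins, its expected background, the ratio of both, an FDR (a corrected p-value) and a mark for H3K4me3 peak bins. The deposited FitHiChIP lists hold a contact count, the coverage (reads) of each anchor, q-values and, per pair, the expected fraction of the library's contacts, from which the total contacts were computed. Contacts absent from a list are unknown, not 0.

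Gene positions, strand and promoter sequences came from RefSeq tables of GRCm38.p6, the same assembly as mm10 in its chromosomes. A promoter bin holds a gene end and is marked as an H3K4me3 peak bin in a list. Distances run between bin starts. Called loop loss means at most 0.25 times the control loops, among bins with at least 10 (MAPS) or 5 (FitHiChIP) loops over both lists. A loop is shared when both bins are the same. The genes and lists were chosen with earlier results of these data known. Partner genes named by rule have an end in a marked partner bin, at most 4 per promoter. Ank2, Gpam, Rbm20, Ccdc88a and Mtif2 were named after their values were seen. Relatives named hold at least 5 loops in a list, and the like bins are the nearest 2 of each promoter. Some genes that these rules name are not reported here. The counting was tested on simulated lists. Python 3.11.15, pandas 2.3.3, numpy 2.4.6 and SciPy 1.17.1 were used. Alternatives covered the caller, distance range, neighbouring bins, stricter FDR and ratio, merging of adjacent pairs and the loss rule.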

Additional observations from a re-analysis of the deposited data

Results flagged for a closer look

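At 2 promoters the loop count moved in opposite directions with auxin in the 2 cell types. This difference was not tested, since each group has 1 list. At Camk2d, the difference of auxin minus control in MAPS loops was 1 in ESCs (0 in control, 1 with auxin) and -31 in NPCs (31 and 0). The ESC loop is the pair with Ugt8a at -660 kb, which FitHiChIP listed in ESC control too. At Zfp3, the same difference in FitHiChIP loops was 2 in ESCs (7 and 9) and -4 in NPCs (7 and 3). MAPS counted 17 and 10 loops at Zfp3 in ESCs, so there the direction of the plain count depends on the caller. Relative to the list totals, the log2 change at Zfp3 in ESCs was 0.33 in MAPS and 0.88 in FitHiChIP.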

How the results depend on the processing

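No paired analysis was possible because each group has 1 list per caller and no values per sample, and for the same reason no sample could be left out. The loops of the 7 bins in ESC control (53 in MAPS) were 27 in FitHiChIP up to 1 Mb, 85 with the bins on either side, 35 at FDR under 0.001, 31 at a ratio of at least 3 and 24 with adjacent pairs merged. In ESC auxin (14) they were 6 at that ratio. In NPC control (178) they were 95 in FitHiChIP, 74 up to 1 Mb, 105 at that ratio and 69 merged. In NPC auxin (1) they were 27 in FitHiChIP, 12 up to 1 Mb and 3 with the bins on either side. The share of NPC control loops called again (0.562%) was 25.3% in FitHiChIP, 12.2% up to 1 Mb and 71.4% beyond. In ESCs (13.2%) it was 28.3% with a partner 1 bin off and 25.9% in FitHiChIP up to 1 Mb. The share also in ESC control (23%) was 30.5% in FitHiChIP, 34.8% with a partner 1 bin off and 61.9% in FitHiChIP beyond 1 Mb. Bins with at most 0.5 times the control loops were 42.5% in ESCs and 44.3% in NPCs, and with at least 20 loops those with at most 0.25 times were 7.71% and 10.2%. With a pseudocount of 0.5, 6 of the 10 lowest bins were among the 7. The relative change of each of the 7 genes in NPCs kept its sign in all 35 alternatives. At Zfp3 it was only -0.15 in FitHiChIP and -0.01 up to 1 Mb. The choice of the bins used the MAPS counts and required that sign in FitHiChIP, so nothing is read from the kept signs. In ESCs 2 of 35 turned sign: Nell1, 0.04 in MAPS, was -0.44 in FitHiChIP, and Zfp3, 0.33, was -0.11 with the bins on either side. Nell1 had 1 loop in ESC control and 0 with auxin in both callers, so its sign differs only through the list totals and the pseudocount. The splits at 1 Mb of the shares were chosen after seeing the data. Loops are counted past the callers' thresholds, so a lost loop can be a small loss of contacts.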

Other observations

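The bins beside the 7 promoter bins held the most loops at Zfp3 and Rce1. The bin below Zfp3, which is not marked by H3K4me3, held 14, 4, 13 and 0 MAPS loops in ESC control, ESC auxin, NPC control and NPC auxin, and the one above it 8, 3, 2 and 0. The bin above Rce1 held 8, 0, 11 and 0, and the one below it, which is marked, 1, 0, 4 and 2. FitHiChIP listed at most 3 loops in any of these bins in any group. Beside Camk2d, Adra2a and Nell1, MAPS listed 0 loops in both neighbouring bins in all 4 groups, and beside Ppp4r3b and Parm1 at most 2.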
